A study of Mus musculus with 12 samples.

Results

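Genes of the actin cytoskeleton and the growth cone, 10 of the 14042 nuclear mRNA genes with kept reads, were followed by nanopore direct RNA sequencing in mouse P19 cells before and during neuronal differentiation. The genes were the cytoplasmic actins Actb and Actg1, the actin filament severing protein cofilin (Cfl1), the profilins Pfn1 and Pfn2, the β-thymosins Tmsb4x and Tmsb10, and the membrane-associated proteins Marcks, Marcksl1 and Basp1. They were chosen by name, and their reads were those that passed the authors' poly(A) quality tag and carried the mRNA class. Together they held 51533 of 4274320 kept reads. P19 is a line of embryonal carcinoma cells, and all groups came from this 1 line. D0 cells were undifferentiated, and D2, D4 and D6 cells had been kept for 2, 4 and 6 days in NDiff 227 medium supplemented with 500 nM retinoic acid. Each day had 3 biological replicates, which gave 12 libraries with between 120326 (D2 replicate 1) and 613756 (D0 replicate 2) kept reads. The 3 replicates of a day were barcoded and sequenced together. Each of the 13 sequencing runs held 1 day only, so a day cannot be told apart from its runs. The names of the 3 D0 runs call the cells undifferentiated but carry the mark D2, and among the 4 D6 runs 2 have no day in their name. The days used here are those of the sample labels. Pluripotency markers summed to between 1694 and 2019 scaled reads per 1000000 (CPM) in the libraries labelled D0, and to at most 12 in those labelled D2. This sum rests mostly on Pou5f1, with a mean over all libraries of 206.5 reads, against 7 for Utf1 and 5.5 for Tdgf1. The other listed markers had too few reads to be tested or 0 reads.

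Actin exists in the cell as monomers and as filaments, and the growth cone, the motile tip of a growing axon, advances by assembling filaments at its leading edge. Thymosins bind monomers and hold them in reserve, profilins hand monomers to growing filament ends, and cofilin severs old filaments. MARCKS, its relative MARCKSL1 and BASP1 lie under the plasma membrane, where they bind phosphoinositides and calmodulin, and BASP1 is a classical protein of growth cones. The poly(A) tail at the 3′ end of an mRNA is bound by poly(A)-binding protein and takes part in translation and decay.

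A direct RNA read begins at the 3′ end of 1 molecule, so the end of the aligned read marks where the tail was attached. Read ends were grouped on the most-read transcript of each gene, keeping ends that held at least 5% of the reads within 50 nt. Of the genes, 8 had a single such end, with between 94.3% (Basp1) and 99.8% (Tmsb4x) of the reads on that transcript, and Marcks and Actb had a pair each. The grouping was chosen after the reads had been seen. The last 30 bases before the ends are shown for the genes whose tails or ends are described further on, in the order 5′ to 3′ on the transcript, with the copy of the polyadenylation signal AATAAA nearest to the end in capitals. The proximal end of Marcks holds a further copy, left in lower case. All lie in a 3′ untranslated region, and positions are on mm10.
Actb main end, chr5:142903125-142903154, minus strand: ttgagaccAATAAAagtgcacaccttacct
Actb proximal end, chr5:142903717-142903746, minus strand: ttgcgcagaaaaaaaaaaaataagagacaa
Actg1, chr11:120345690-120345719, minus strand: gtaaagaAATAAAagtgctgcagtaactga
Tmsb4x, chrX:167207093-167207122, minus strand: ttaatatgcaAATAAAgttttaaaacctga
Tmsb10, chr6:72957352-72957381, minus strand: gattgatgaaAATAAAaacacctcgtggca
Marcks proximal end, chr10:37134816-37134845, minus strand: aaaaaaataaatgtgAATAAAatgtacaaa
Marcks distal end, chr10:37133375-37133404, minus strand: attaaggaaAATAAAtaactcttgtacagt

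The hexamer, searched on the transcript strand only, was present in 11 of the 12 ends of the 10 genes. Among 12154 annotated transcripts with at least 30 reads, 57.6% held it in their last 30 bases. These are annotated ends, whether or not reads end there, whereas the ends of the 10 genes were placed by reads, so the shares are unlike measures. The end without it was the proximal end of Actb, which instead holds a run of 12 adenines. A match is a description of the letters in this window.

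Abundance is given as CPM, the reads of a gene per 1000000 kept reads after scaling between libraries by the trimmed mean of M-values, and was tested with limma-voom over 9309 genes with Benjamini-Hochberg adjustment (called at an adjusted p of at most 0.05). Between D0 and D6, 7 of the 10 genes rose and 1 fell. Basp1 and Pfn2 rose most, the thymosins and the MARCKS pair rose between 2.57-fold and 3.23-fold, Actb rose slightly, and Pfn1 fell. Actg1 and Cfl1 did not pass the test. Of all genes tested, 19.4% were called higher and 18.2% lower in this comparison. Over the 10 genes the log2 fold changes had a median of 1.41, against 0.017 over all genes. In bulk RNA, more molecules per cell and more cells of a type cannot be told apart.

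**Figure D1:**
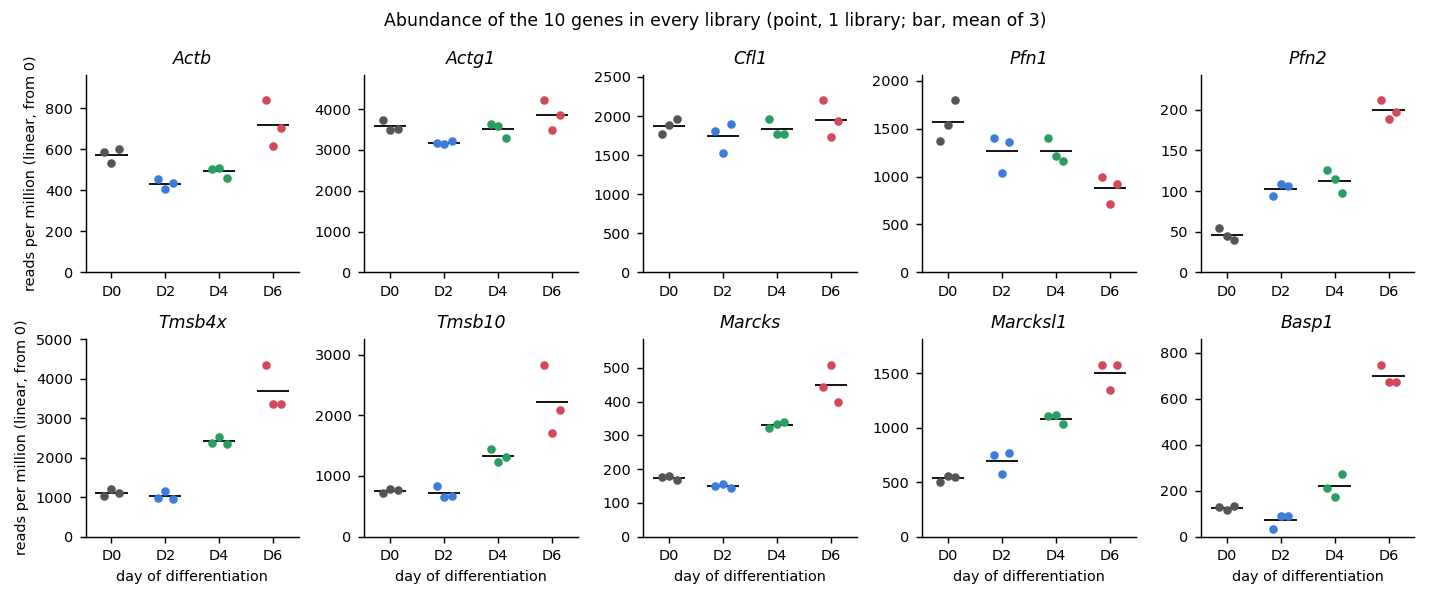
Abundance of each gene in CPM (vertical axis, linear, from 0) against the day of differentiation, with 1 point per library and a bar at the mean of 3. The D6 libraries of Basp1, Pfn2, Tmsb4x, Tmsb10, Marcks and Marcksl1 lie above every D0 library, and those of Pfn1 lie below.

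Among the membrane-associated proteins, Basp1 stood at 128, 115 and 132 CPM in the D0 libraries, 31.4, 88.3 and 90.3 in those of D2, 212, 171 and 274 in those of D4 and 750, 675 and 674 in those of D6. The D6 libraries lay well above the rest, and those of D4 above those of D0. The log2 fold change was 2.47 ± 0.16 (SE) at D6 against D0 (5.56-fold, adjusted p = 5.13e-21). It was 0.79 ± 0.18 at D4 (adjusted p = 0.000368), so most of the rise fell between D4 and D6, where it was 1.68 ± 0.15 (adjusted p = 6.12e-14). The D4 call was lost in libraries thinned to the smallest (log2 0.66, adjusted p = 0.113). At D2 the log2 value was -0.77 ± 0.29 (adjusted p = 0.0693). It was called without voom weights (log2 -0.91, adjusted p = 0.00906) and without D0 replicate 2 or D4 replicate 2 (adjusted p = 0.047 and 0.0423). Results on the most-read transcript come from a limma-voom fit of all transcripts with its own scaling. That fit called the D2 value too (adjusted p = 0.0443), on the same Basp1 reads, since all lie on 1 transcript. Every D2 library lay below every D0 library, but the lowest, D2 replicate 1, rested on 4 reads.

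Marcks stood at 175, 180 and 168 CPM at D0, 149, 157 and 143 at D2, 322, 333 and 339 at D4 and 442, 510 and 398 at D6. The 3 libraries of each day were close together and no 2 days overlapped. It did not pass the test at D2 (log2 -0.20 ± 0.19, adjusted p = 0.594), rose 1.90-fold by D4 (log2 0.93 ± 0.14, adjusted p = 5.16e-07) and stood 2.57-fold above D0 at D6 (log2 1.36 ± 0.14, adjusted p = 1.57e-12). The step from D4 to D6 was 0.44 ± 0.13 (adjusted p = 0.0233). This step lost its call when any of the D4 libraries or D6 replicate 2 was left out (adjusted p between 0.0508 and 0.2). It was also lost with a barcode confidence of at least 0.75 (log2 0.29, adjusted p = 0.196), without voom weights and in libraries thinned to the smallest (adjusted p = 0.0908 and 0.352). The fit of all transcripts, which used the same Marcks reads, lost it as well (adjusted p = 0.0983).

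Its relative Marcksl1 stood at 505, 558 and 546 CPM at D0, 745, 578 and 765 at D2, 1102, 1111 and 1034 at D4 and 1570, 1344 and 1578 at D6. Each day lay above the one before it without overlap. The log2 fold changes against D0 were 0.35 ± 0.13 at D2 (adjusted p = 0.0683), 1.01 ± 0.11 at D4 (adjusted p = 3.43e-11) and 1.46 ± 0.11 at D6 (adjusted p = 2.26e-18). The D2 value was close to the threshold and passed it without D2 replicate 2 (log2 0.50, adjusted p = 0.0215). It also passed with factors by the median of ratios, with total reads alone, without voom weights, with all quality tags, in libraries thinned to the smallest and with the replicate number as a block (log2 between 0.35 and 0.62, adjusted p between 0.000852 and 0.0439). Marcks and Marcksl1 rose by nearly the same factor at D6 (2.57-fold and 2.76-fold).

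Neither β-thymosin passed the test at D2, and both rose at D4 and D6. Tmsb4x, the major monomer-binding peptide of many cells, stood at 1026, 1210 and 1098 CPM at D0, 988, 1156 and 940 at D2, 2371, 2510 and 2351 at D4 and 4357, 3345 and 3365 at D6. D0 and D2 overlapped, and D4 and D6 each lay above all earlier libraries. The log2 fold change was -0.11 ± 0.12 at D2 (adjusted p = 0.644), 1.12 ± 0.09 at D4 (adjusted p = 2.45e-15) and 1.69 ± 0.09 at D6 (3.23-fold, adjusted p = 5.33e-25).

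Tmsb10 stood at 713, 784 and 775 CPM at D0, 839, 654 and 669 at D2, 1444, 1224 and 1310 at D4 and 2839, 1713 and 2090 at D6. The D6 libraries differed from each other by more than those of any other day, but all lay above D4. The log2 fold change was -0.10 ± 0.14 at D2 (adjusted p = 0.729), 0.79 ± 0.12 at D4 (adjusted p = 2.60e-07) and 1.47 ± 0.11 at D6 (2.77-fold, adjusted p = 1.44e-17). The aligner gave 94.0% of the Tmsb10 reads a mapping quality under 10. On the few reads with a quality of at least 10, the D4 value was 0.31 (adjusted p = 0.434).

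The profilins moved in opposite directions. Pfn1, the widely expressed profilin, stood at 1372, 1538 and 1795 CPM at D0, 1403, 1039 and 1365 at D2, 1404, 1219 and 1164 at D4 and 991, 715 and 923 at D6. Only the D6 libraries were clear of those of D0. The log2 fold change was -0.87 ± 0.11 at D6 (1.83-fold lower, adjusted p = 1.18e-09). The smaller falls of -0.33 ± 0.11 at D2 (adjusted p = 0.0475) and -0.33 ± 0.10 at D4 (adjusted p = 0.0124) overlapped D0. They lost their call without D0 replicate 3 (adjusted p = 0.145 and 0.119). The D2 fall also lost its call without D2 replicate 2 (log2 -0.17) or without D6 replicate 3 (log2 -0.33). The D4 fall lost its call without D4 replicate 3 (adjusted p = 0.0884), with scaling by total reads alone (log2 -0.21, adjusted p = 0.0601) and without voom weights (adjusted p = 0.112). The fall from D4 to D6 was -0.54 ± 0.12 (adjusted p = 0.000776) and lost its call without D6 replicate 2 (log2 -0.38, adjusted p = 0.0525).

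Pfn2, the profilin enriched in neurons, was read far less often, with 23, 24 and 19 reads in the D0 libraries and 57, 90 and 73 at D6. It was the one gene of the 10 to be called higher already at D2. It stood at 54.5, 44.5 and 39.9 CPM at D0, 94.1, 108 and 106 at D2, 126, 115 and 97.4 at D4 and 212, 189 and 198 at D6. D2 and D4 overlapped each other, whereas both lay above D0 and below D6. The log2 fold changes were 1.20 ± 0.26 at D2 (adjusted p = 0.000649), 1.26 ± 0.23 at D4 (adjusted p = 1.11e-05) and 2.09 ± 0.21 at D6 (4.27-fold, adjusted p = 1.14e-12).

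Between D0 and D6 the actins and cofilin, the most basic parts of the filament system, had the smallest log2 changes of the 10 genes. Actg1 stood at 3737, 3499 and 3501 CPM at D0, 3167, 3146 and 3218 at D2, 3644, 3581 and 3295 at D4 and 4216, 3498 and 3858 at D6. The D2 libraries lay below those of D0, and D4 and D6 overlapped D0. None of the changes against D0 passed the test, with log2 values of -0.17 ± 0.08 at D2 (adjusted p = 0.18), -0.03 ± 0.07 at D4 (adjusted p = 0.766) and 0.09 ± 0.07 at D6 (adjusted p = 0.303). The D2 value passed without D0 replicate 2 (log2 -0.23, adjusted p = 0.0477) and on the most-read transcript (log2 -0.30, adjusted p = 0.00204). On reads with a mapping quality of at least 10, the D4 value was 0.70 (adjusted p = 0.0252). That limit kept mostly near-complete Actg1 reads, whose share differed between days, as given with the actin shares below.

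Cfl1 stood at 1775, 1890 and 1961 CPM at D0, 1803, 1529 and 1896 at D2, 1963, 1774 and 1769 at D4 and 2201, 1730 and 1930 at D6, with overlapping libraries on all days. Its log2 change at D6 was 0.03 ± 0.09 (adjusted p = 0.814). Lower values were called at D4 on reads with a mapping quality of at least 10 (log2 -0.22, adjusted p = 0.0328) and at D2 on the most-read transcript (log2 -0.26, adjusted p = 0.0378). The sizes for Actg1 and Cfl1 depend on the scaling between libraries. With total reads alone, every D6 to D0 difference is shifted upward by 0.23 on the log2 scale, and at D6 Actg1 (log2 0.33, adjusted p = 1.95e-08) and Cfl1 (log2 0.27, adjusted p = 0.00047) were then called higher.

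Actb stood at 588, 535 and 600 CPM at D0, 455, 405 and 435 at D2, 506, 511 and 459 at D4 and 839, 617 and 704 at D6. D2 and D4 lay below D0, and D6 lay above it. The log2 change was -0.42 ± 0.14 at D2 (adjusted p = 0.0382), -0.22 ± 0.12 at D4 (adjusted p = 0.175) and 0.30 ± 0.11 at D6 (adjusted p = 0.0335). Both calls were near the threshold. On reads with a mapping quality of at least 10, the D4 value was -0.35 (adjusted p = 0.00906) and was called, and the D6 value was 0.23 (adjusted p = 0.052). With that limit 9 of the 10 genes were called at D4, against 7 without it. The fit with the limit was scaled anew, and its D4 log2 values were lower also for genes with few reads under the limit. Pfn1 (0.34% of its reads) went from -0.33 to -0.48, Marcks (0.17%) from 0.93 to 0.78, Marcksl1 (0.13%) from 1.01 to 0.86 and Basp1 (0.08%) from 0.79 to 0.64. Whether the lower D4 values of Actb and Cfl1 go beyond this shift was not tested. The D6 call was lost in 9 of the 12 fits that left out 1 library (without D6 replicate 1 the log2 value was 0.20 and without D0 replicate 2 it was 0.19), and the D2 call was lost without D0 replicate 3, D2 replicate 2 or D2 replicate 3. The D6 call was also lost without voom weights (adjusted p = 0.0648), with a barcode confidence of at least 0.75 (log2 0.21, adjusted p = 0.158) and with all quality tags (log2 0.22, adjusted p = 0.0687). With factors by the median of ratios, the D2 falls of Actb and Pfn1 were no longer called (adjusted p = 0.0792 and 0.111). With total reads alone, which shifts D2 to D0 differences upward by 0.19, they were -0.23 (adjusted p = 0.254) and -0.16 (adjusted p = 0.341), and the D6 value of Actb was 0.53 and stayed called. The rise of Actb from D4 to D6 was 0.52 ± 0.12 (adjusted p = 0.00213).

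**Figure D2:**
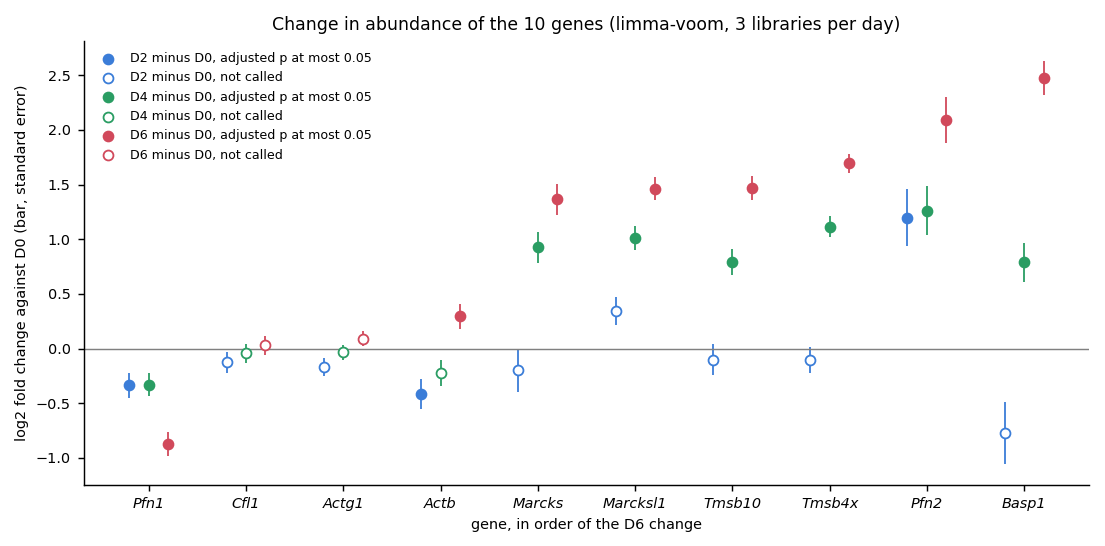
Log2 fold change of each gene at D2, D4 and D6 against D0 (vertical axis, bars are standard errors from limma-voom, 3 libraries per day), with filled symbols for an adjusted p of at most 0.05. At D2 most symbols lie at or below 0, and at D6 the values run from -0.87 for Pfn1 to 2.47 for Basp1.

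The days differed in how many of the 10 genes were called. At D2, 1 rose and 2 fell, beside 4.48% and 6.32% of all genes. These 3 calls became 5 without D0 replicate 2, 1 without D0 replicate 3 and 6 on the most-read transcript. At D4, 6 rose and 1 fell, beside 12.6% and 12.7%. From D2 to D4, 5 rose and 0 fell (2.01% and 1.02% of all genes; no gene of the 10 had both a lower value and an unadjusted p under 0.05, since all 5 with such a p rose, beside 860 higher and 614 lower of 9309 genes at such a p). On reads with a mapping quality of at least 10, Tmsb10 lost this call (log2 0.47, against 0.89; adjusted p = 0.558) and 4 genes were called. From D4 to D6, 7 rose and 1 fell (4.44% and 3.92%), and 4 were called in libraries thinned to the smallest. These comparisons share libraries. As a share of a library, the 10 genes made up 0.944% ± 0.032 (D0), 0.975% ± 0.055 (D2), 1.25% ± 0.02 (D4) and 1.72% ± 0.12 (D6) of its reads (SD, n = 3).

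Within a library, 2 related genes can be compared without any scaling, as the share of their joint reads. A read stands for 1 molecule read from its 3′ end, so reads were not divided by length, but the share per kilobase is also given. Pfn2 held 2.93% ± 0.83 of the profilin reads at D0. Its share was 7.65% ± 1.62 at D2 and 8.20% ± 0.45 at D4, and reached 18.7% ± 1.89 at D6 (SD, n = 3). The 3 libraries of each later day lay above those of D0. Per kilobase of transcript the share went from 1.10% at D0 to 7.81% at D6, since the Pfn2 transcript of 2342 nt is the longer one (Pfn1, 861 nt).

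Actg1 held 86.2% ± 0.72 of the actin reads at D0, and 88.0% ± 0.57 (D2), 87.7% ± 0.16 (D4) and 84.3% ± 0.83 (D6) afterwards, without overlap between D0 and any later day. Per kilobase these shares were 86.0% at D0 and 84.1% at D6. The order depended on the mapping quality. Of the 8983 Actg1 reads that began more than 100 nt from the transcript start, 99.7% had a mapping quality under 10, against 17.0% of the 6016 that began nearer. A limit of 10 therefore kept mostly the near-complete Actg1 reads, and with it the D6 to D0 difference in the share turned from -1.84 to 4.23 percentage points. The difference from D0 grew from 1.87 to 8 points at D2 and from 1.53 to 17.2 points at D4. The share of Actg1 reads that began within 100 nt of the start was 33.5% ± 15.3 at D0 and 45.4% ± 17.0 at D6.

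Tmsb10 held 40.6% ± 1.10 of the thymosin reads at D0. Its share was 41.2% ± 4.90 (D2), 35.5% ± 2.56 (D4) and 37.2% ± 2.95 (D6) afterwards. The D4 libraries lay below those of D0, with a mean difference of -5.09 percentage points, or -2.10 on reads with a mapping quality of at least 10. Marcksl1 held 75.4% ± 1.14 of the MARCKS pair at D0, then 82.1% ± 2.97 (D2), 76.5% ± 1.07 (D4) and 76.8% ± 3.83 (D6). Per kilobase the Tmsb10 share was 47.9% at D0 and 44.4% at D6, and the Marcksl1 share 88.6% and 89.3%. A two-sided exact permutation test with 3 libraries against 3 cannot go below p = 0.10. Of the 12 tests, 8 reached this smallest p (adjusted p = 0.15), and none could pass the threshold. Over all kept reads the largest of the 12 differences was that of the profilins at D6, 15.8 percentage points. With a mapping quality of at least 10 it was 11.1 points, below the 17.2 points of the Actg1 share at D4.

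**Figure D3:**
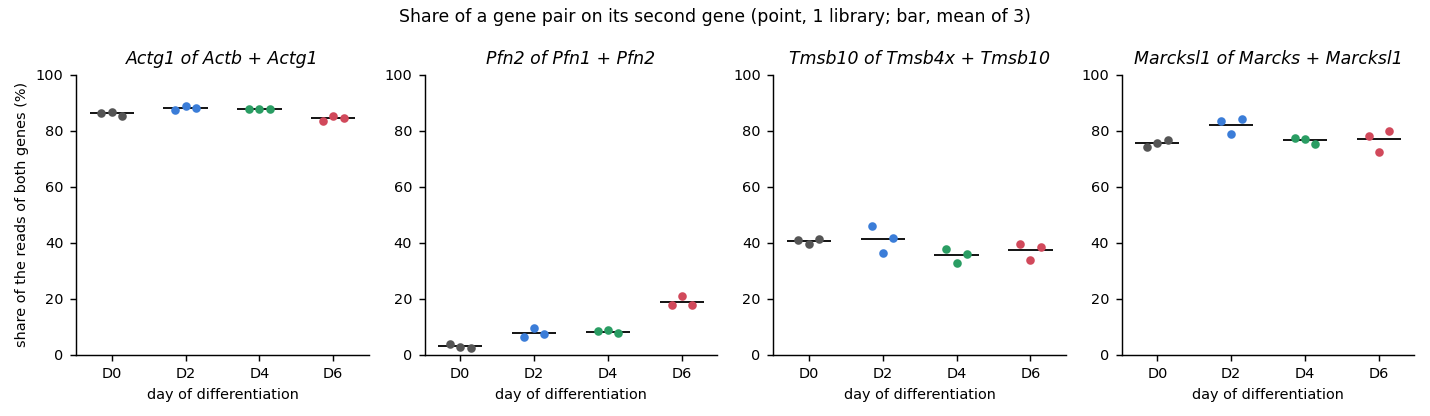
Share of the reads of a gene pair that fell on its second gene (vertical axis, %, from 0 to 100) by day, with 1 point per library and a bar at the mean of 3. Pfn2 takes 18.7% of the profilin reads at D6 against 2.93% at D0, while the shares of the other pairs move by less than 7 percentage points.

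Tails were compared as the median length per gene and library with limma over 1747 genes that had at least 10 reads in every library. Of the 10 genes 9 could be tested, and Basp1 could not because D2 replicate 1 held 4 of its reads. Median tails over all kept reads lay between 95.2 and 106 nt in the 12 libraries. The tails of Actg1 and Marcks lengthened between D0 and D6, 2 of 9 genes, beside 1.95% of all genes tested that were called longer and 6.47% called shorter.

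The median tail of Marcks was 123, 110 and 119 nt in the D0 libraries, 123, 125 and 127 nt at D2, 128, 124 and 134 nt at D4 and 146, 145 and 138 nt at D6. All D6 libraries lay above all earlier ones. The D6 to D0 difference was 25.7 ± 6.4 nt (SE, adjusted p = 0.00516). It was 22.0 nt without D0 replicate 2 (adjusted p = 0.0718). Tails of 30 to 90 nt made up 29.7% ± 3.37 of the Marcks reads at D0 and 13.6% ± 0.90 at D6 (SD, n = 3), and this share fell by 16.0 percentage points (adjusted p = 0.0237). That call was lost without any 1 of 5 libraries of D0 and D6, D0 replicate 3 being the exception (adjusted p up to 0.154).

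The median tail of Actg1 was 92.5, 94.9 and 98.3 nt at D0, 95.5, 98.8 and 95.3 nt at D2, 97.0, 99.4 and 105 nt at D4 and 107, 107 and 104 nt at D6. D6 lay above D0 without overlap, by 10.9 ± 2.2 nt (adjusted p = 0.000416). The share of Actg1 tails of 30 to 90 nt fell from 44.8% ± 1.46 at D0 to 37.3% ± 1.62 at D6 (adjusted p = 0.000876). Among reads with a mapping quality of at least 10, the tail difference was 15.0 nt (adjusted p = 0.00192). Actg1 thus had a longer tail at D6 while its abundance did not pass the test.

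Tmsb4x was the one gene of the 9 called shorter in tail at D2. Its medians were 99.8, 109 and 107 nt at D0, 92.0, 84.2 and 102 nt at D2, 89.5, 103 and 95.5 nt at D4 and 99.6, 96.8 and 97.9 nt at D6. The D2 difference was -12.4 ± 3.5 nt (adjusted p = 0.0193), and the share of its tails between 30 and 90 nt rose from 36.2% ± 4.67 to 46.4% ± 7.22 (adjusted p = 0.00486). D0 and D2 overlapped. The shorter median was no longer called without D0 replicate 2, D0 replicate 3, D2 replicate 1 or D2 replicate 2 (adjusted p = 0.114, 0.123, 0.0625 and 0.217). With 1 library left out, its size ran from -8.1 nt without D2 replicate 2 to -17.1 nt without D2 replicate 3. The rise of 30 to 90 nt tails lost its call without D0 replicate 2 or D2 replicate 2 (adjusted p = 0.12 and 0.106). At D6, when its abundance was 3.23-fold higher, the tail difference was -7.10 ± 3.46 nt (adjusted p = 0.269), or -7.82 nt in a fit weighted by reads (adjusted p = 0.0375).

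At D2, 1 of the 9 genes had a shorter median tail and 0 a longer one, beside 5.90% and 0.458% of all genes. At D4, 0 of the 9 were called by limma, beside 6.58% of all genes called shorter and 0.458% called longer. An unadjusted p under 0.05 was found for 2 of the 9, and among all 1747 genes for 188 with a shorter and 43 with a longer tail. Weighting by reads called 2 of them at D4, Actg1 (5.65 nt, adjusted p = 0.0282) and Tmsb4x (-8.63 nt, adjusted p = 0.0394). For tails of 30 to 90 nt, 1 gene rose at D2 (5.90% of all genes rose and 0.286% fell), 0 were called at D4 (5.78% and 0.172%) and 2 fell at D6 (0.916% fell and 5.61% rose). At D4, 2 of the 9 had an unadjusted p under 0.05 for this class, beside 181 higher and 37 lower of the 1747. For tails under 30 nt, limma called 0 of the 9 genes at D2, D4 and D6, and weighting by reads also called 0. Of all genes, 0.0%, 1.26% and 2.75% rose in that class and 0.0% fell. An unadjusted p under 0.05 was found for 1, 2 and 1 of the 9 on these days, beside 90, 190 and 193 higher and 32, 13 and 17 lower of the 1747.

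The other genes gave no tail difference past the threshold against D0. Cfl1 went from 101 ± 2.6 nt at D0 to 107 ± 1.1 nt at D6 (adjusted p = 0.262), Actb from 120 ± 1.5 to 126 ± 0.5 nt (adjusted p = 0.599) and Marcksl1 from 112 ± 1.4 to 115 ± 4.0 nt (adjusted p = 0.682). Pfn1 stood at 102 ± 0.7 nt and 103 ± 3.2 nt, and Tmsb10 at 105 ± 5.4 nt and 102 ± 3.3 nt (SD, n = 3; limma adjusted p = 0.916 and 0.696). Pfn2 varied widely at D0, from 88.1 to 142 nt, with at most 24 reads per library. Basp1 had medians of 88.0, 83.8 and 90.2 nt at D0 and 99.5, 99.3 and 109 nt at D6. In a fit without D2 replicate 1 its D6 difference was 15.2 ± 7.2 nt (adjusted p = 0.267).

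**Figure D4:**
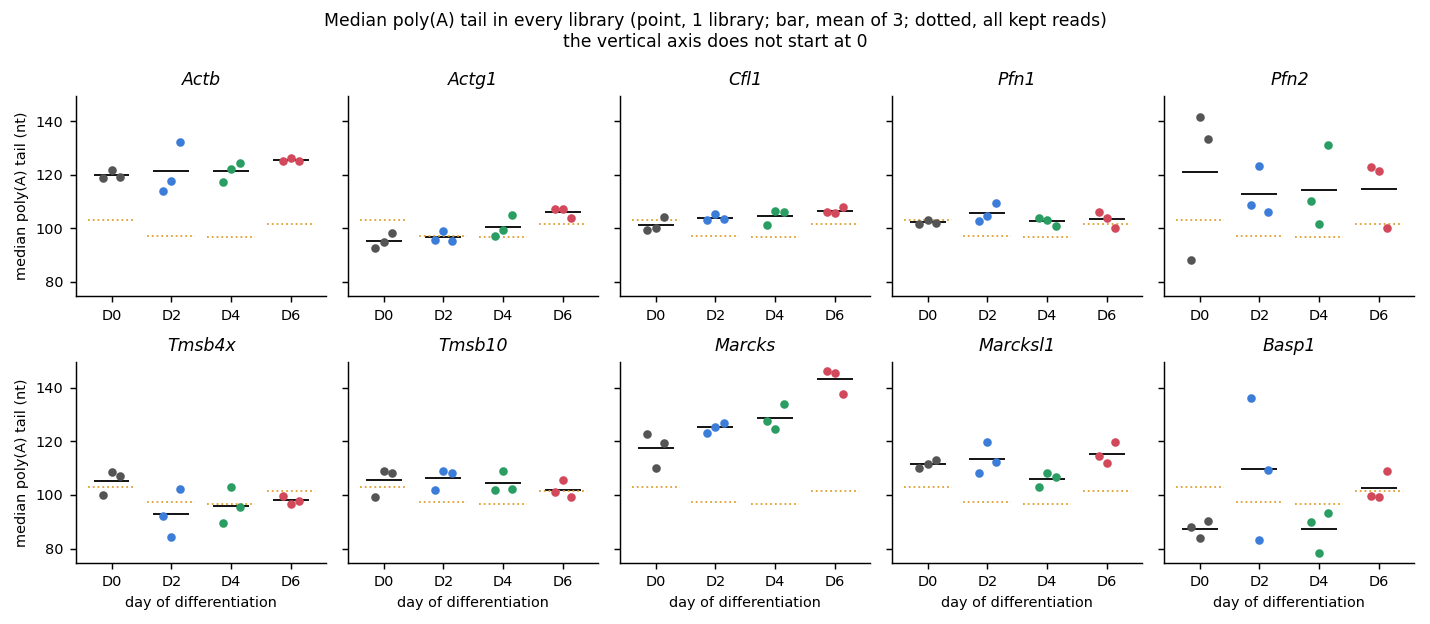
Median poly(A) tail length in nt (vertical axis, not starting at 0) of each gene by day, with 1 point per library and a solid bar at the mean of 3. A dotted bar marks the mean of the 3 library medians over all kept reads of the same day. Marcks reaches 138 to 146 nt at D6, and Actg1 lies below the dotted bar at D0 and above it at D6.

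The genes of a pair differed in tail length within the same library. Actg1 tails were shorter than Actb tails in 12 of 12 libraries, by 22.3 ± 5.4 nt on average (SD; range 18.0 to 36.9 nt; means 99.6 and 122 nt). Marcksl1 tails were shorter than Marcks tails in 11 of 12 libraries, by 17.0 ± 10.7 nt (means 112 and 129 nt). Tmsb10 tails were longer than Tmsb4x tails in 11 of 12 libraries, by 6.54 ± 7.09 nt, and Pfn2 tails were longer than Pfn1 tails in 9 of 12, by 12.2 ± 15.9 nt. Two-sided exact sign-flip tests over the 12 libraries gave adjusted p = 0.00195, 0.00195, 0.00195 and 0.022 over the 4 pairs. The thymosin difference turned to -4.28 nt (adjusted p = 0.0913) on reads with a mapping quality of at least 10, which 94.0% of the Tmsb10 reads did not reach.

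Marcks reads ended at 2 places in its 3′ untranslated region. The proximal end, at base 2607 of the 4048-nt transcript, held 74.0% of the reads, and the distal end, at the annotated end of the transcript, held 21.3%. The distal share was 10.8%, 16.1% and 18.2% in the D0 libraries, 18.8%, 24.3% and 14.8% at D2, 20.8%, 20.9% and 33.8% at D4 and 31.0%, 21.7% and 21.5% at D6. All D4 and D6 libraries lay above all D0 libraries, by 10.1 and 9.71 percentage points on average (exact permutation test, p = 0.10 each, the smallest possible). At D0 the distal share rested on 8, 15 and 14 reads.

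Tails at the distal end of Marcks were the longer ones in 9 of 12 libraries, by 16.6 ± 18.3 nt on average (exact sign-flip p = 0.0127; SD over libraries). Pooled over the 3 libraries of a day, the distal and proximal medians were 120 and 113 nt at D0, 125 and 125 nt at D2, 145 and 122 nt at D4 and 166 and 138 nt at D6. The proximal reads alone went from 117 ± 9.1 nt at D0 to 135 ± 4.8 nt at D6, a difference of 17.8 nt (exact permutation p = 0.10, the smallest possible), beside 25.7 nt for all Marcks reads. At this end all 3 D6 libraries lay above all 3 D0 libraries.

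Actb reads ended mainly at base 1910 of the 1920-nt transcript (89.8%). A further 9.57% ended at base 1318, behind the run of 12 adenines, 84 bases past the last codon before the stop. The share of the main end was 91.1% ± 1.5 at D0 and 90.3% ± 0.3 at D6 (exact permutation p = 0.6). Reads of the main end had the longer tail in 12 of 12 libraries, by 36.2 ± 19.3 nt (exact sign-flip p = 0.000488, the smallest possible). Pooled by day, main-end tails were 122, 124, 124 and 129 nt and proximal tails 104, 96.3, 90.8 and 89.0 nt at D0, D2, D4 and D6. What a read end behind an encoded run of adenines stands for was not tested.

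**Figure D5:**
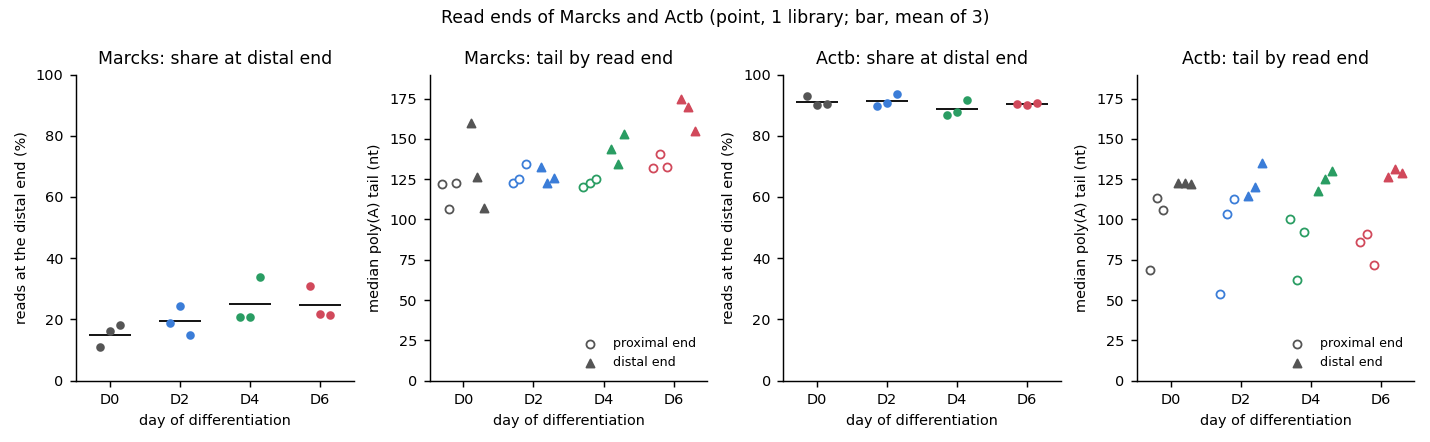
Share of reads at the distal of the 2 read ends (%, panels with bars) and median tail by read end in nt (open circles proximal, triangles distal) for Marcks and Actb, with 1 point per library. The distal share of Marcks averages 15.0% at D0 and 24.7% at D6, and the Actb proximal tails lie below the main-end tails in every library.

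Most genes were read almost entirely from 1 annotated transcript, from 94.9% (Pfn2) to 100% (Marcks, Marcksl1 and Basp1), apart from Actg1 with 90.2%. Actg1 and Pfn2 had a second transcript with at least 5% of the reads. The share on the most-read transcript was 88.9% ± 2.0 at D0 and 90.7% ± 3.0 at D6 for Actg1, and 95.7% ± 4.3 and 95.4% ± 2.0 for Pfn2 (exact permutation test, adjusted p = 0.8 and 1.0). Transcripts that share a 3′ end cannot be told apart by reads that stop short of their differing 5′ part.

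The other genes of the actin system were grouped in 7 lists, described by their counts beside the background of 19.4% higher and 18.2% lower at D6. Of 29 tested growth cone and axon genes, 19 rose and 1 fell, with a median log2 fold change of 1.82. Dpysl3 and Dpysl4, which encode collapsin response mediator proteins, rose 22.7-fold and 8.42-fold (9.31 ± 4.29 to 214 ± 47.6 and 15.3 ± 9.2 to 130 ± 14.2 CPM; SD, n = 3). The neuronal tubulin Tubb3 rose 6.38-fold and Gap43, a growth cone protein that like Basp1 lies under the membrane, rose 6.09-fold, from 63.6 ± 7.2 to 392 ± 30.2 CPM.

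Of 22 tested genes for monomer binding, severing and capping, 8 rose and 2 fell (median log2 0.28). Cfl2, the cofilin known from muscle, rose 7.60-fold, from 31.8 ± 9.3 to 251 ± 58.1 CPM (log2 2.93 ± 0.26, adjusted p = 9.08e-15), while Cfl1 did not pass the test. Wdr1, a cofilin cofactor, rose 2.24-fold, the severing protein destrin (Dstn) 1.96-fold and the capping subunit Capza2 1.43-fold. Of 22 cross-linkers and tropomyosins, 4 rose and 12 fell (median log2 -0.69). The bundling protein Pls3 fell 4.44-fold and Tagln2 3.76-fold, whereas the spectrin Sptan1 rose 3.29-fold and Dbn1, which encodes the neuronal actin-binding protein drebrin, 2.10-fold.

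Of 20 genes of the Arp2/3 complex, which branches filaments, and its activators, 2 rose (Brk1 and Arpc3) and 2 fell (Arpc1b, 3.23-fold, and Arpc2, 1.73-fold), with a median log2 value of 0.08. Of 11 formins and other nucleators 3 rose and 1 fell (median 0.002), the rise of Evl, 3.19-fold, being the one that averaged at least 20 reads a library. Of 10 muscle actins and myosins 1 rose (Myl6) and 5 fell, including Myl12a by 1.73-fold (median -0.27).

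Marker genes of cell types were summed to describe the cultures. All 10 neuron markers were called higher at D6, and 2 were called lower at D2. Their summed level was 483 to 546 CPM in the D0 libraries, 125 to 245 at D2, 1469 to 1779 at D4 and 2648 to 2957 at D6. Of 10 pluripotency markers 6 had kept reads, and their sum went from 1694 to 2019 at D0 to 8.12 to 11.1 at D6. The 3 of them that could be tested fell. Of 8 neural progenitor and radial glia markers, 6 rose and 2 fell (739 to 797 at D0, 2661 to 3205 at D6). Markers of smooth muscle and fibroblasts stood at 68.5 to 71.4 at D0 and 8.39 to 14.8 at D6. Those of endoderm (at most 16.1 in any library), blood and immune cells (at most 16.2) and astrocytes and oligodendrocytes (at most 40.8) were low throughout. Of the 8 markers listed for each of these types, 4 of endoderm, 4 of blood and immune cells and 5 of astrocytes and oligodendrocytes had kept reads. Those with 0 kept reads were Sox17, Gata4, Afp and Cubn, then Ptprc, Tyrobp, Hbb-bs and Hbb-bh1, then Aqp4, S100b and Olig1. Mbp alone had enough reads to be tested and was not called at D6 (log2 0.43, adjusted p = 0.363). The part of these changes in cell makeup in the values of the 10 genes was not tested.

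For each of the 10 genes, the gene with the most similar course was found by Pearson correlation of log2 CPM over the 12 libraries among 2796 genes that averaged at least 20 reads a library. The libraries share day, run and depth, so these values describe likeness only. Marcks was most like the tubulin gene Tubb2b (r = 0.98), Tmsb4x most like Mllt11 (0.99), Marcksl1 most like Rtn1 (0.98), Tmsb10 most like Sdcbp (0.97), Pfn2 most like Fabp7 (0.97), a radial glia marker, and Basp1 most like Csnk1e (0.97). Pfn1 was most like Rplp2 (0.96), which encodes a ribosomal stalk protein. Actb, Actg1 and Cfl1 were most like Tmem199 (0.94), Atp6v0b (0.90) and Cox7a2 (0.88).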

How the data were processed

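Native RNA of P19 cells was sequenced on nanopores. Per the labels and the study's methods, base calling used Guppy, alignment to mm10 transcripts used Minimap2 (2.20), tail lengths came from Nanopolish and barcodes from Deeplexicon. Their deposited table has 1 line per alignment (6306434 lines, of which 289262 had no barcode and 67 were malformed). Tail length and alignment positions are in nt, not normalized. The deposited mapping quality is a score of the aligner. The deposited confidence of a barcode call is a fraction. A deposited table of the authors' own log2 fold changes and adjusted p-values was not used. Lines with the PASS tag (4673531) were restricted to nuclear mRNA-class transcripts, which left 4274320 reads (73.2% to 82.4% of lines per library passed).

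Reads were summed per gene, and limma-voom (limma 3.58.1, R 4.3.3, pseudocount of 0.5 reads) was fitted to all 12 libraries on genes with at least 30 reads. Trimmed-mean scaling removed 30% of ratios and 5% of levels. Tail medians and the percentages under 30 nt and from 30 to 90 nt were fitted with limma with a trend on reads. P-values were two-sided. Single values were compared by exact permutation or sign-flip tests. The numbers of the replicates did not pair the libraries, since correlations of same-numbered deviations with D0 ran from -0.134 to 0.165. Named genes were the 10 members, up to 4 genes per other list (the largest called D6 changes among genes averaging at least 20 reads a library) and the most similar gene of each member. The result of 1 further gene list is not reported here. The members, lists and tests were chosen with earlier results of these data known. Alternatives changed scaling, filters, weights, mapping quality, read choice, tail summary and libraries. The fits were tested on simulated data. Tables were made with Python 3.11.15, and positions were checked against GENCODE annotation of the same build.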

Additional observations from a re-analysis of the deposited data

How the results depend on the processing

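Of 879 recomputed values of the 37 called changes in abundance and tails, 818 kept their direction and call, 61 kept the direction only and 0 reversed. The number of the 10 genes called in abundance at D2, 3 in the report, ran from 1 to 5 when 1 library was left out. It was 6 in a fit of all transcripts with its own scaling, taken at the most-read transcript of each gene. That fit also moved the D2 log2 value of Basp1 from -0.77 to -0.91, although all Basp1 reads lie on 1 transcript. From D4 to D6, 8 genes were called, and 4 when all libraries were thinned to the smallest. With 1 library left out, the number called ran from 6 to 7 at D4, from 7 to 8 at D6, from 6 to 8 from D4 to D6 and stood at 5 from D2 to D4. For median tails it ran from 0 to 1 at D2, from 0 to 1 at D4 and from 1 to 2 at D6, and for tails of 30 to 90 nt from 0 to 1, from 0 to 1 and from 1 to 2. At D4, weighting by reads called 2 genes in median tail and 2 in tails of 30 to 90 nt, a minimum of 30 reads called 1, and class limits of 25 and 85 nt called 1. At D6 a minimum of 30 reads in every library called 1, since Marcks was no longer tested.

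With a mapping quality of at least 10, the change of the Actg1 share against D0 was 8 percentage points at D2, 17.2 at D4 and 4.23 at D6, that of the D2 Tmsb10 share was -0.078, the Tmsb10 minus Tmsb4x tail was -4.28 nt, and the share on the most-read transcript changed by -0.069 points for Actg1 and 3.70 for Pfn2. The Cfl1 log2 change at D6 was -0.084 with that limit, -0.0203 with a barcode confidence of at least 0.75 and -0.00719 on the most-read transcript, and ran from -0.047 to 0.126 with 1 library left out. The Pfn2 tail difference at D6 was 6.97 nt by mean tail length. Leaving out 1 library moved the Pfn2 tail difference from -22.8 to 3.94 nt, that of Pfn1 from -0.39 to 2.76 nt, the D2 Tmsb10 share change from -1.70 to 3.19 points, the D6 Marcksl1 share change from -0.16 to 3.52 points and the Pfn2 transcript share change from -2.48 to 1.87 points. None of these had passed a test, apart from the thymosin tail difference, and the causes were not tested.

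Replicate numbers did not pair the libraries. With the number as a replicate block, Marcksl1 was also called at D2 (log2 0.35, adjusted p = 0.0439), no other call of the 10 genes changed, and 1 of 9 same-numbered pairs correlated best with its own number. Thinned to the smallest library, 9 abundance calls of the 10 genes were lost, among them those of Basp1 at D4 (adjusted p = 0.113), of Actb at D2 and D6 (adjusted p = 0.267 and 0.13) and of Pfn1 at D2 and D4 (adjusted p = 0.382 and 0.205), so a gene not called is not shown to be stable.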
